A study of Mus musculus with 8 samples.

Results

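Transcript levels of 10 dendritic cell genes (Xcr1, Clec9a, Batf3, Irf8, Itgax, Flt3, Zbtb46, Cd209a, Ccr7 and Fscn1) were followed in the pregnant mouse uterus with and without diphtheria toxin. They were taken by symbol from a table of 49585 genes. All 10 were found, and all 10 were among the 22693 genes with enough reads to be tested. The tissue was whole uterus together with fetal tissue, taken on embryonic day 8 (E8) from 8-week-old Foxp3DTR females pregnant by BALB/c males, which makes the conceptus allogeneic. Foxp3DTR mice carry a diphtheria toxin receptor driven by Foxp3, the gene that defines regulatory T cells, and both groups carried this allele. One group received 1 µg of diphtheria toxin (DT) intraperitoneally at E1, E3, E5 and E7, and the control group received PBS. The protocol in the labels gives the depletion of regulatory T cells as 85% and also calls the injections daily. The 4 DT libraries are numbered 1, 3, 4 and 5 in the labels and the 4 PBS libraries 1, 2, 4 and 6. Each was taken as 1 female, and values are always listed in that order. Where no label ties a library to its own animal, p-values measure only the spread between these libraries.

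Dendritic cells take up antigen in tissues, carry it to lymph nodes and present it to T cells. Conventional dendritic cells fall into a cross-presenting type (cDC1), which shows internalised antigen to CD8 T cells, and a second type (cDC2), which mainly addresses CD4 T cells. Cells of the cDC1 type are recognised by the chemokine receptor XCR1 and the dead-cell receptor CLEC9A, and their development needs the transcription factors BATF3 and IRF8. When dendritic cells mature they gain CCR7, the receptor that guides them to lymph nodes, and fascin (Fscn1), an actin-bundling protein. In the pregnant uterus, dendritic cells are known to be few and to become trapped in the decidua, the transformed lining around the implanted embryo.

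Total counts were 94794512 to 109847604 per library, a 1.16-fold spread, so that even the scarcest member rested on 42 or more reads in each library. Levels are given as CPM, the reads of a gene relative to the library total scaled by its TMM factor. The uterine and decidual markers were all measured, 11 of 11, at 6553 to 15010 CPM in sum. Foxp3 did not separate the groups (4.36 to 5.44 CPM in PBS and 5.10 to 5.72 CPM in DT libraries, edgeR adjusted p = 0.595) and gave no check of the labels, so libraries are named as labelled. Of the Foxp3 exon bases, 31.5% overlap other genes, and 18.9% of the 75-base windows of its exons occur in another gene. Reads counted for Foxp3 therefore cannot all be assigned to it with certainty. Several libraries stood apart in tissue composition. PBS-labelled replicates 1 and 2 held 331 and 1002 CPM of trophoblast and conceptus transcripts in sum, against 13.9 to 68.4 CPM elsewhere, and 20.8 and 114 CPM of the embryonic globin Hbb-bh1, against at most 0.466 CPM elsewhere. In DT-labelled replicate 1 there were 687 CPM of Prl8a2, a prolactin-family gene of the decidua, against 2893 to 8960 CPM in the other 7 libraries, and its ratio of Myh11 (smooth muscle myosin) to Prl8a2 was 1.60 against 0.0381 to 0.294. Myh11, Prl8a2 and Hbb-bh1 were chosen after their values were seen. The titles carry a suffix, S1 or S2 for PBS and S3 or S4 for DT libraries, so suffix and treatment cannot be told apart.

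Of the 10 genes, Xcr1 was the only one to pass the test between groups. It rose 2.44-fold in the DT-labelled uteri. Itgax was higher in every DT library than in any PBS library but did not pass, and Clec9a, the other cDC1 surface receptor, overlapped between groups. Neither migration gene was called: Ccr7 had a negative change that did not pass, and Fscn1 had the same mean in both groups within 1.01-fold. Thus 1 member was called higher, where 0.322% of all genes tested were, and 0 were called lower, where 0.00441% were (edgeR quasi-likelihood test, Benjamini-Hochberg adjusted p under 0.05). At an unadjusted p under 0.05, 3 members were higher (Xcr1, Itgax and Batf3), against 4.72% of all genes, and 1 was lower (Ccr7), against 3.98%. Groups did not overlap for 2 members, both higher in DT (Xcr1 and Itgax), against 3.33% of all genes higher and 1.73% lower. The plot of CPM by library shows all 10 genes. In this bulk tissue, more or fewer cells of a type and more or less RNA per cell cannot be told apart.

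**Figure D1:**
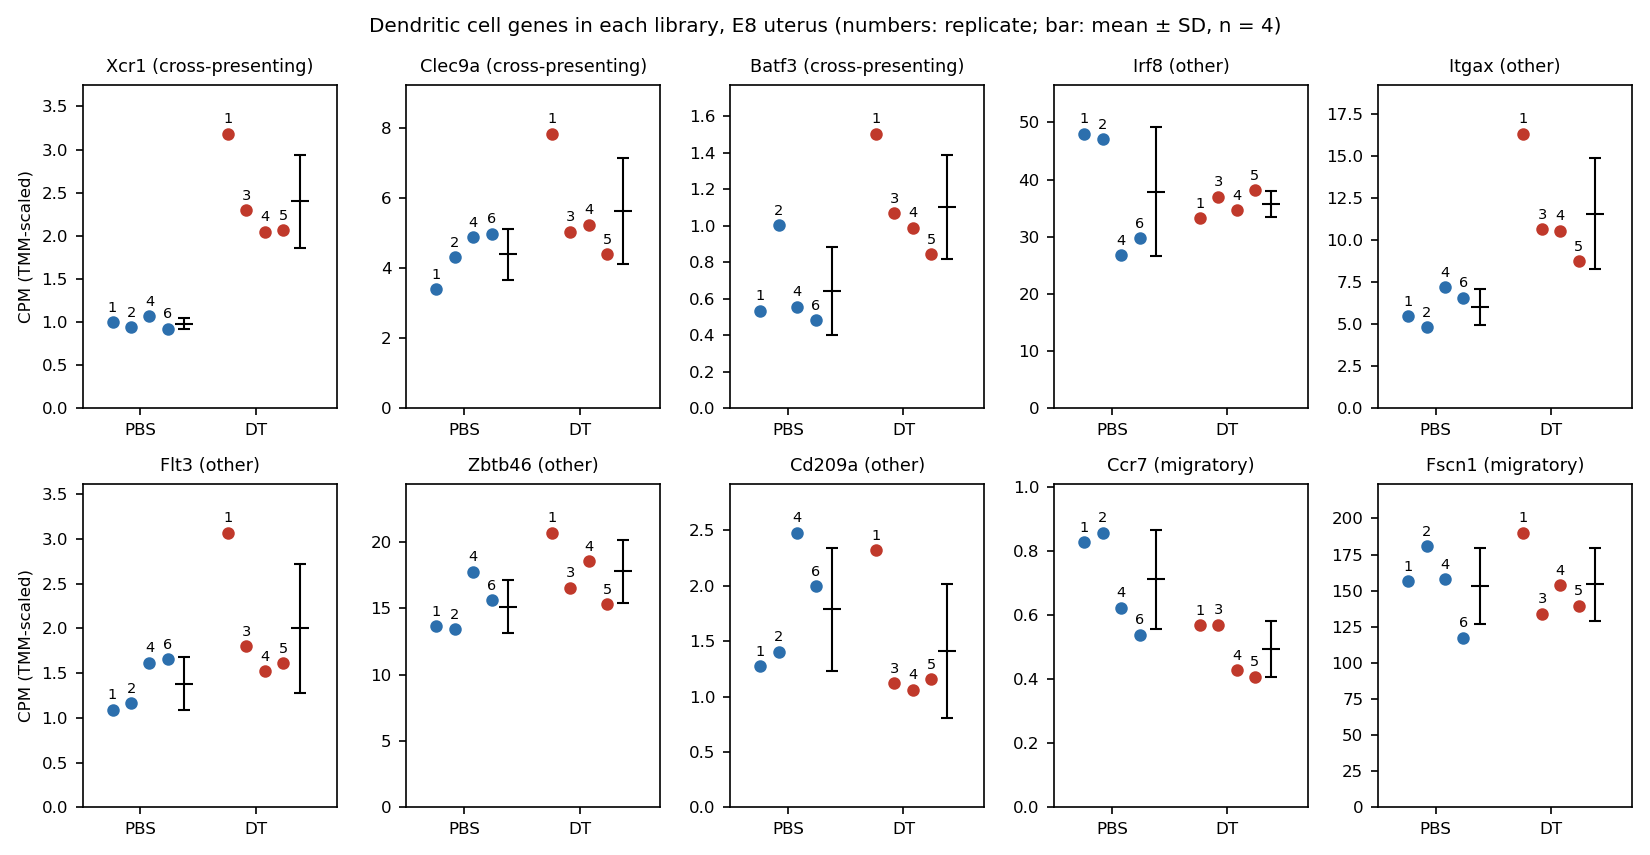
CPM of each of the 10 dendritic cell genes (vertical axis, from 0) in the 4 PBS and 4 DT libraries (horizontal axis); each point is 1 library with its replicate number, and bars give mean ± SD. Xcr1 and Itgax are the panels in which every DT point lies above every PBS point, and DT-labelled replicate 1 is the highest DT point in 8 of the 10 panels.

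Promoter sequence is shown for 3 surface molecules that behaved differently, Xcr1 and Itgax, whose groups did not overlap, and Clec9a, whose groups did. Each run is the 250 bases before the RefSeq transcription start on build GRCm38.p6, written 5′ to 3′ on the gene's strand in lower case, at chr9:123862030-123862279 (minus strand) for Xcr1, chr6:129408612-129408861 (plus strand) for Clec9a and chr7:128129300-128129549 (plus strand) for Itgax. Capitals mark a match to the AP-1 motif, the class of site to which BATF-family dimers bind.
Xcr1: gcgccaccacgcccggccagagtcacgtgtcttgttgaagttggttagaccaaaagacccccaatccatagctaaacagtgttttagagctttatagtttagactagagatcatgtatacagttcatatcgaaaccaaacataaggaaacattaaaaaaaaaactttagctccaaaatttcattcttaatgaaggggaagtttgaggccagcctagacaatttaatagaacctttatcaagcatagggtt
Clec9a: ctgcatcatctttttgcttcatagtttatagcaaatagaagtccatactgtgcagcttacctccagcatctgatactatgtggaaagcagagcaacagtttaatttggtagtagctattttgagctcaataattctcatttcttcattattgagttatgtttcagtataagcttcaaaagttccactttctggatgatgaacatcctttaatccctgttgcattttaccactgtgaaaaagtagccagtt
Itgax: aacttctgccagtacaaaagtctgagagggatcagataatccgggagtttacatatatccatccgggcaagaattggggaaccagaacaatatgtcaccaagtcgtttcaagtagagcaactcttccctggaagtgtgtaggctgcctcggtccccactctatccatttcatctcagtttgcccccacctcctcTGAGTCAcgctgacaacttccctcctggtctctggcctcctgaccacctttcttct
RefSeq promoters were matched for 9 of the 10 members, all but Ccr7. Searched on both strands, the AP-1 letters TGANTCA stood in the upstream bases of 2 members, Itgax (56 to 50 bases before the start) and Zbtb46 (61 to 55 bases before it), and in 6.75% of 32851 promoters of the same length. The Zbtb46 window (chr2:181424389-181424638, minus strand) lies inside the gene, which spans 181387762 to 181459426. Whether its letters are promoter or intron sequence was not tested. The IRF letters GAAANNGAA stood in 0 of the 9 (7.13% of all promoters), and the PU.1 letters GAGGAAGT also in 0 (2.44%). Without any IRF or PU.1 match in these windows, an overlap with an AP-1 match was not possible. A match describes letters only, and the gene that passed the test, Xcr1, held none of the 3 motifs in this window.

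Xcr1 (ENSMUSG00000060509, chromosome 9, 123852315 to 123862029 of GRCm38, minus strand) encodes the receptor for the chemokine XCL1 and, among leukocytes, marks cross-presenting dendritic cells. Its level was 3.18, 2.30, 2.05 and 2.07 CPM in the DT libraries and 1.00, 0.939, 1.07 and 0.926 CPM in the PBS libraries. The PBS libraries lay within 0.926 to 1.07 CPM of each other, and the lowest DT library stood well above them. The log2 fold change was 1.29 ± 0.17 (SE, n = 4 each; 95% interval 0.89 to 1.68), with an edgeR adjusted p of 0.0367. Each library held 91 to 409 Xcr1 reads, and 0.411% of the 75-base windows of its exons occur in another gene. The change was 1.12 without DT-labelled replicate 1, the library with the highest level, and the edgeR adjusted p was then 0.0158. Xcr1 was not called by edgeR when any 1 of the other 7 libraries was left out, with adjusted p-values of 0.132, 0.110 and 0.114 without DT 3, DT 4 or DT 5 and of 0.146, 0.118, 0.0631 and 0.163 without PBS 1, PBS 2, PBS 4 or PBS 6. Its log2 fold change was then 1.26 to 1.36. Without both conceptus-rich PBS libraries it was 1.27 (edgeR adjusted p = 0.428), a setting in which 0 of all genes were called higher.

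Clec9a (ENSMUSG00000046080, chromosome 6, 129408862 to 129424763, plus strand) encodes a lectin receptor that binds actin filaments exposed on dead cells and routes their antigens to cross-presentation. It measured 7.82, 5.04, 5.23 and 4.39 CPM in the DT libraries and 3.40, 4.31, 4.87 and 4.98 CPM in the PBS libraries. DT-labelled replicate 1 was the highest of the 8, and the other 3 DT libraries lay among or just above the PBS libraries. Its log2 fold change was 0.36 ± 0.20 (edgeR adjusted p = 0.572), 0.16 without that library and 0.19 without the conceptus-rich PBS libraries. Of its exon bases, 5.59% overlap the neighbouring Clec1b. There were 0.392 to 0.471 Xcr1 reads for each Clec9a read in the DT libraries, and 0.186 to 0.295 in the PBS libraries, without overlap. Xcr1 already separated by itself and the members were chosen with results known, so this ratio is not a separate test.

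Batf3, a transcription factor that cDC1 cells need to develop, was low throughout. It measured 1.50, 1.07, 0.989 and 0.845 CPM in DT and 0.534, 1.00, 0.557 and 0.482 CPM in PBS libraries. PBS-labelled replicate 2 stood at the level of the DT libraries, and the other PBS libraries were below all of them. The log2 fold change was 0.78 ± 0.29 (unadjusted p = 0.0253, edgeR adjusted p = 0.552), and it did not pass. It was 0.59 without DT-labelled replicate 1 and 1.08 without PBS-labelled replicates 1 and 2. The median log2 fold change of the 3 cross-presenting genes was 0.778, against 0.233 for the 5 genes of neither class, -0.256 for the 2 migration genes and 0.007 over all genes tested. The medians 0.778 and 0.233 are the values of Batf3 and Zbtb46, neither of them called. Their classes spanned 0.36 (Clec9a) to 1.29 (Xcr1) and -0.34 (Cd209a) to 0.94 (Itgax). The median of the migration genes was -0.0365 without PBS-labelled replicates 1 and 2, -0.162 without PBS-labelled replicate 2 alone and -0.366 without PBS-labelled replicate 6. These medians describe a few genes chosen with earlier results known.

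**Figure D2:**
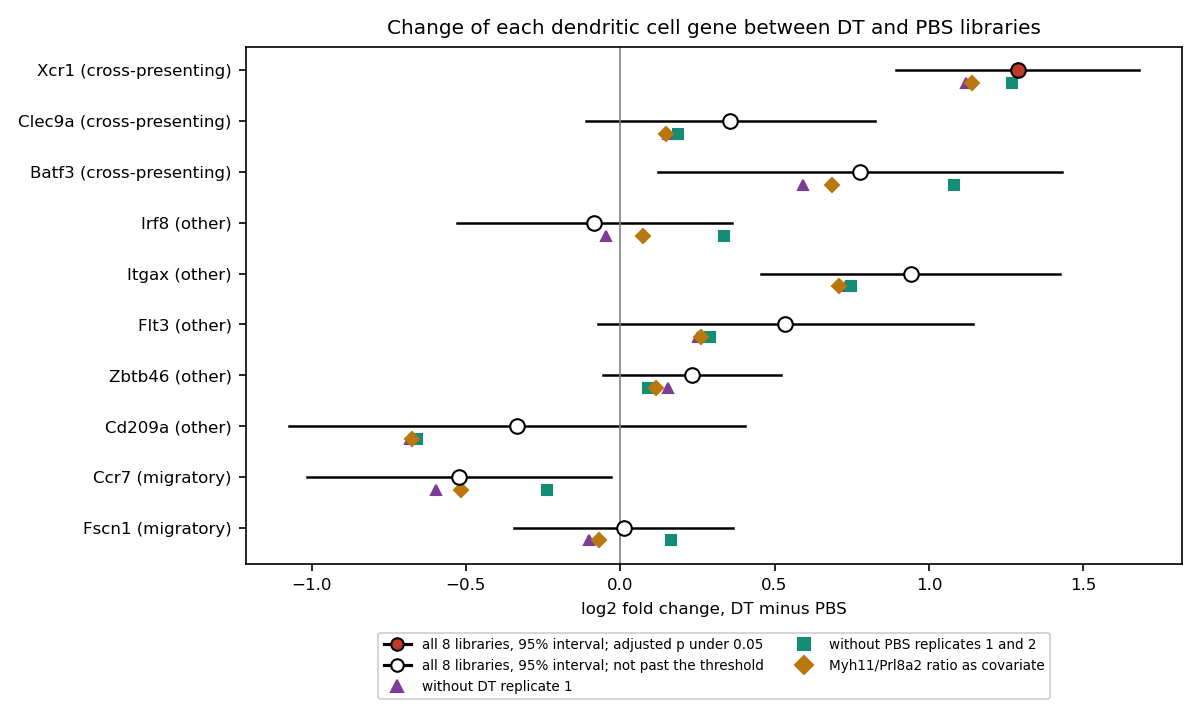
Log2 fold change, DT minus PBS (horizontal axis), of the 10 genes: circles and lines give the edgeR estimate from all 8 libraries with its 95% interval, filled where the adjusted p was under 0.05; triangles leave out DT-labelled replicate 1, squares leave out PBS-labelled replicates 1 and 2, and diamonds add the Myh11 to Prl8a2 ratio as a covariate. Xcr1 lies between 1.12 and 1.29 in all 4, whereas Irf8 and Fscn1 lie on either side of 0.

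Itgax (ENSMUSG00000030789, chromosome 7, 128129547 to 128150657, plus strand) encodes CD11c, the integrin chain used to recognise dendritic cells, which many tissue macrophages also carry. It measured 16.3, 10.7, 10.6 and 8.74 CPM in DT and 5.48, 4.84, 7.21 and 6.59 CPM in PBS libraries. All 4 DT libraries were above all 4 PBS libraries, and DT-labelled replicate 1 was again the highest. The log2 fold change was 0.94 ± 0.21 (95% interval 0.46 to 1.43), 0.73 without that library and 0.75 without the conceptus-rich PBS libraries. The edgeR adjusted p of 0.225 missed the threshold, although the unadjusted p was 0.00197. DESeq2 called Itgax and Xcr1, 2 of the 10 genes, with adjusted p-values of 0.00412 and 9.78e-09, where it called 1.09% of all genes higher. With the Myh11 to Prl8a2 ratio as a covariate, an alternative chosen after seeing the data, edgeR called the same genes, Xcr1 with a log2 fold change of 1.14 and Itgax with 0.71, at an adjusted p of 0.00401 for both. That fit called 1.03% of all genes higher.

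The other markers of the lineage showed no call. Flt3, the receptor for the growth factor that sustains dendritic cells, measured 3.07, 1.80, 1.52 and 1.61 CPM in DT and 1.09, 1.17, 1.62 and 1.65 CPM in PBS libraries (log2 fold change 0.53 ± 0.27, edgeR adjusted p = 0.571). Zbtb46, a transcription factor of conventional dendritic cells that endothelial cells also express, measured 20.7, 16.5, 18.5 and 15.3 CPM in DT and 13.7, 13.4, 17.7 and 15.6 CPM in PBS libraries (0.23 ± 0.13, edgeR adjusted p = 0.571). Both overlapped between groups, with DT-labelled replicate 1 at the top. Without that library the log2 fold change was 0.25 for Flt3 and 0.16 for Zbtb46, and without PBS-labelled replicates 1 and 2 it was 0.29 and 0.09. Cd209a, a lectin of monocyte-derived and cDC2 cells, measured 2.32, 1.12, 1.06 and 1.16 CPM in DT and 1.27, 1.40, 2.47 and 1.99 CPM in PBS libraries (-0.34 ± 0.32, edgeR adjusted p = 0.665). DT-labelled replicate 1 alone kept the groups from separating downward: the other 3 DT libraries were below every PBS library, and without it the log2 fold change of Cd209a was -0.68 (unadjusted p = 0.0283, edgeR adjusted p = 0.648). Without PBS-labelled replicate 4, the highest PBS library, it was -0.14 (edgeR adjusted p = 0.816). Irf8, a factor of cDC1, plasmacytoid and monocytic cells, measured 33.2, 37.0, 34.6 and 38.1 CPM in DT and 48.0, 47.1, 26.8 and 29.8 CPM in PBS libraries. The PBS libraries fell apart into a high and a low pair, the high pair being the conceptus-rich replicates 1 and 2, with the DT libraries between them. Its log2 fold change was -0.08 ± 0.19 (edgeR adjusted p = 0.857) and turned to 0.34 without that high pair.

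Ccr7 (ENSMUSG00000037944, chromosome 11, 99144196 to 99155077, minus strand), the homing receptor of migrating dendritic cells and of naive T cells, had the lowest mean CPM of the members in the DT libraries (0.493), and Batf3 had it in the PBS libraries (0.643 against 0.711 for Ccr7). It measured 0.568, 0.570, 0.428 and 0.408 CPM in DT and 0.828, 0.856, 0.623 and 0.539 CPM in PBS libraries, from 42 to 83 reads each. PBS-labelled replicates 1 and 2 were the highest, and PBS-labelled replicate 6 fell within the DT range. The log2 fold change was -0.52 ± 0.22 (unadjusted p = 0.0399, edgeR adjusted p = 0.563), and -0.24 without PBS-labelled replicates 1 and 2. Fscn1 measured 190, 134, 154 and 140 CPM in DT and 157, 181, 158 and 118 CPM in PBS libraries (0.01 ± 0.15, edgeR adjusted p = 0.980), a gene that many stromal and endothelial cells express and that was the most abundant member here. Its 95% interval, -0.34 to 0.37, covers changes of either sign.

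Members were next set against other genes of the same library, which cancels library scaling. Ptprc (CD45), carried by all leukocytes, measured 47.0 to 62.9 CPM in DT and 40.7 to 55.9 CPM in PBS libraries (log2 fold change 0.12 ± 0.12, edgeR adjusted p = 0.680). For each 100 Ptprc reads there were 5.06, 4.46, 4.36 and 4.08 Xcr1 reads in the DT libraries and 2.04, 1.68, 2.62 and 1.85 in the PBS libraries, a 2.19-fold difference of means without overlap. The same ratio overlapped for Clec9a (8.65 to 12.4 in DT and 6.909 to 11.96 in PBS libraries). For Itgax it was 17.2 to 25.9 in DT and 8.66 to 17.7 in PBS libraries, overlapping through PBS-labelled replicate 4. For Ccr7 it was 0.804 to 1.11 in DT and 1.08 to 1.68 in PBS libraries. Thus 1 member was higher without overlap relative to Ptprc, where 0.895% of all genes were, and 0 were lower, where 5.5% were.

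Zbtb46 was taken as another reference, although endothelial cells also express it and the dendritic share of its reads was not tested. Relative to Zbtb46, Xcr1 again separated, with 11.1 to 15.4 reads per 100 Zbtb46 reads in DT and 5.93 to 7.33 in PBS libraries. Itgax did so too, with 57.0 to 79.0 against 36.1 to 42.2. Clec9a overlapped at 28.2 to 37.8 against 24.9 to 32.1. Ccr7 was lower in all 4 DT libraries, at 2.31 to 3.446 against 3.448 to 6.38, a gap that rests on the last digit. Of all genes, 1.39% were higher and 3.13% lower without overlap relative to Zbtb46. The cDC1 receptor also separated from the migration receptor: there were 4.04 to 5.60 Xcr1 reads per Ccr7 read in DT and 1.10 to 1.72 in PBS libraries. Against the cDC2-associated Cd209a there were 1.37 to 2.05 Xcr1 reads per read in DT and 0.431 to 0.786 in PBS libraries. These pairs were formed from members chosen with results known and carry no test.

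**Figure D3:**
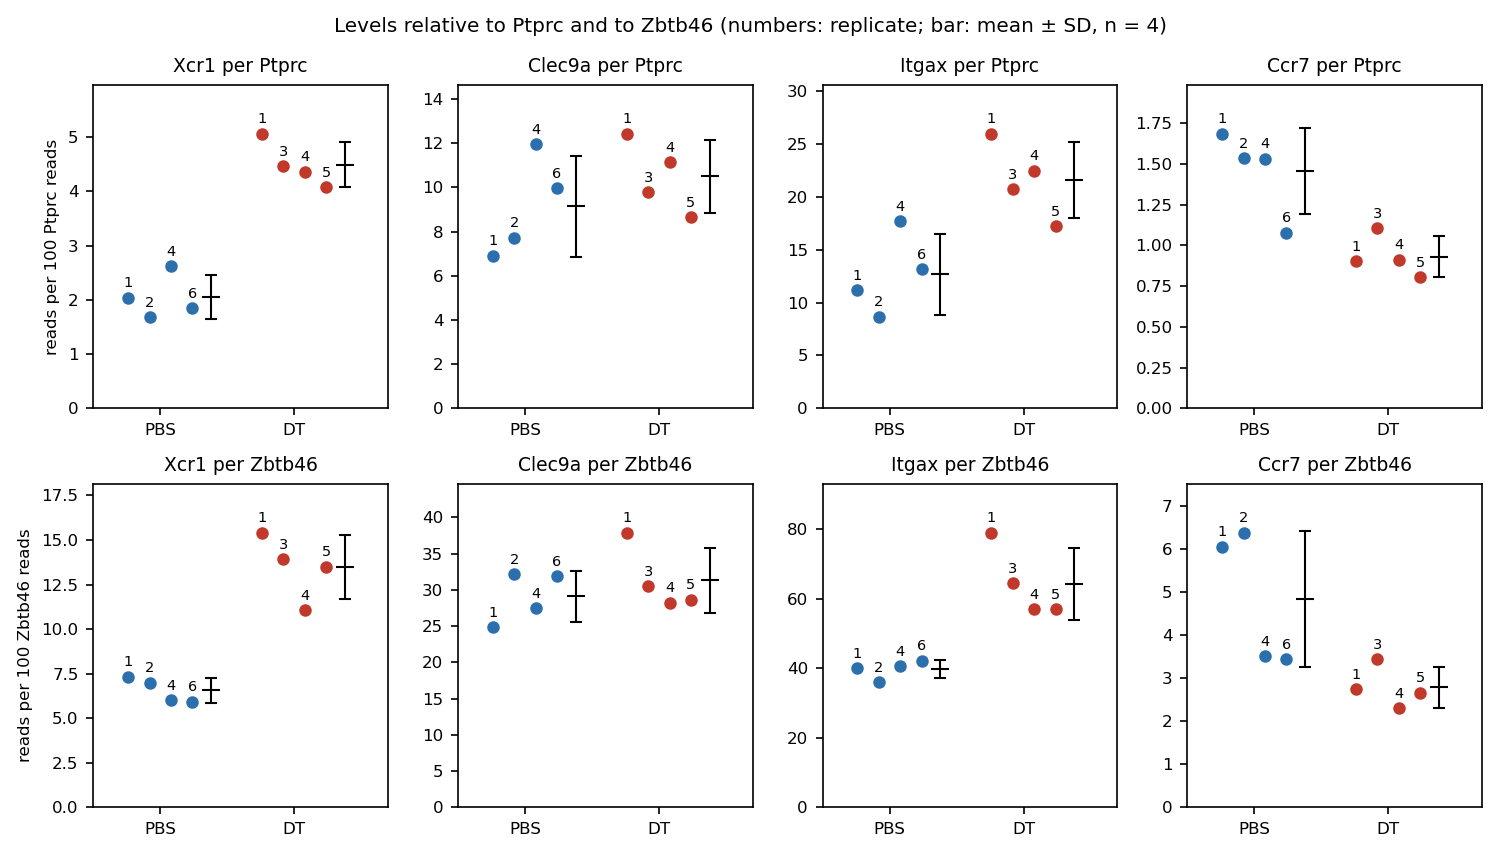
Reads of Xcr1, Clec9a, Itgax and Ccr7 per 100 reads of Ptprc (top row) and per 100 reads of Zbtb46 (bottom row) in each library, with replicate numbers and mean ± SD (vertical axes from 0). Xcr1 separates in both rows (4.08 to 5.06 against 1.68 to 2.62 per 100 Ptprc reads), Itgax only against Zbtb46, and Clec9a in neither.

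Relative to Itgax most genes were lower in the DT libraries. For each 100 Itgax reads there were 47.2 to 50.2 Clec9a reads in DT and 62.0 to 89.1 in PBS libraries. With Flt3, Zbtb46, Cd209a, Ccr7 and Fscn1, 6 of the 9 other members were lower without overlap, near the 64.2% of all genes that were, and 0 were higher, against 0.0837% of all genes. Xcr1 overlapped in range (19.4 to 23.7 against 14.1 to 19.4). DT-labelled replicate 4 and PBS-labelled replicate 2 were both at 19.4, an overlap smaller than the printed digits. Itgax also stood higher against the macrophage receptor gene Adgre1 (F4/80), at 0.461 to 0.568 reads per Adgre1 read in DT and 0.374 to 0.447 in PBS libraries, and Adgre1 itself was higher in every DT library (18.8 to 32.8 against 12.9 to 16.7 CPM, edgeR adjusted p = 0.418). Adgre1 was chosen after its values were seen.

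Levels of different members can be compared only per length, here as CPM per kilobase of exon. In the PBS libraries the order of mean levels was Fscn1 (50.9 CPM per kilobase), Irf8 (5.37), Zbtb46 (1.78), Clec9a (1.33), Itgax (1.26), Cd209a (1.13), Batf3 (0.403), Ccr7 (0.360), Flt3 (0.224) and Xcr1 (0.221). The ranges over libraries overlapped between Clec9a, Itgax and Cd209a, between Batf3 and Ccr7, and between Flt3 and Xcr1, and the other neighbours were apart. In the DT libraries it was Fscn1 (51.3), Irf8 (5.07), Itgax (2.41), Zbtb46 (2.09), Clec9a (1.71), Cd209a (0.893), Batf3 (0.690), Xcr1 (0.539), Flt3 (0.324) and Ccr7 (0.250). There only Fscn1 and Irf8 were clear of their neighbours. Xcr1 thus stood last among the members in PBS and eighth in DT libraries, and Ccr7 eighth and last. The order depends in part on the length used. Per kilobase of the longest transcript, the PBS means of Irf8, Zbtb46, Itgax, Batf3 and Flt3 were 10.9, 2.85, 1.49, 0.580 and 0.350, so that Itgax stood above Clec9a, and the range of Flt3 (0.276 to 0.419) overlapped that of Ccr7 (0.272 to 0.433).

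The ligands and partner chains of these receptors were measured beside them, and 0 of the 7 tested were called. Xcl1, the ligand of XCR1, which NK cells and activated CD8 T cells secrete, measured 1.52, 1.89, 1.47 and 1.30 CPM in DT and 0.980, 0.732, 1.10 and 1.10 CPM in PBS libraries. The groups did not overlap, and the log2 fold change of 0.66 ± 0.18 did not pass (edgeR adjusted p = 0.396); 18.7% of its exon bases overlap Gm20743 on the other strand. Flt3l, the ligand of FLT3, measured 7.37, 6.07, 6.14 and 4.54 CPM in DT and 3.16, 3.37, 5.01 and 4.96 CPM in PBS libraries (0.55 ± 0.21, edgeR adjusted p = 0.555), where 17.0% of the windows also occur in another gene. The edgeR test therefore called neither ligand, nor the receptor Flt3. Of the CCR7 ligands, Ccl19 was at 0.0436 CPM or less in every library and was not tested, and Ccl21a had a log2 fold change of 0.18 ± 0.15, with 61.3% of its windows shared with other genes, so that its reads cannot be assigned with certainty. Itgb2, the chain with which CD11c forms its integrin, had a log2 fold change of -0.08 ± 0.18, against 0.94 for Itgax. Its highest libraries were the conceptus-rich PBS-labelled replicates 1 and 2, at 24.4 and 30.3 CPM. PBS-labelled replicates 4 and 6 measured 16.4 and 19.3 CPM, and the DT libraries 18.7 to 23.7 CPM. Icam1 and Icam2, adhesion ligands of leukocyte integrins, had -0.25 ± 0.28 and -0.13 ± 0.22, the growth factor gene Csf1 had -0.27 ± 0.30, and Csf2 (2 to 9 reads per library) was not tested.

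Wider lists for dendritic cells held a single called gene. Of 12 other cDC1 genes, 0 were called and 4 were higher in every DT library (Itgae, Wdfy4, Naaa and Gcsam), against 3.33% of all genes tested. Their median log2 fold change was 0.253. Itgae, the CD103 integrin chain that T cells also carry, measured 2.95 to 4.83 CPM in DT and 1.35 to 2.45 CPM in PBS libraries (0.99 ± 0.25, edgeR adjusted p = 0.296), and Naaa, a lysosomal amidase, 21.6 to 30.9 against 16.7 to 19.2 CPM (0.46 ± 0.12, edgeR adjusted p = 0.360). Wdfy4 and Gcsam were named after their values were seen. Of 13 other cDC2 genes tested, 0 were called and 6 were higher in every DT library (median 0.578), against 3.33% of all genes tested. The smallest p-values there belonged to Clec12a (0.62 ± 0.12, edgeR adjusted p = 0.140) and Clec4a2 (0.64 ± 0.13, edgeR adjusted p = 0.155), lectin receptors also found on other myeloid cells.

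Among 11 plasmacytoid dendritic cell genes tested, Lair1 alone was called. Lair1, an inhibitory collagen receptor that many leukocytes carry, measured 5.77 to 6.43 CPM in DT and 2.72 to 3.22 CPM in PBS libraries (1.03 ± 0.10, edgeR adjusted p = 0.0153). Bst2, also an interferon-inducible gene, measured 53.5 to 101 against 37.9 to 52.4 CPM (0.82 ± 0.19, edgeR adjusted p = 0.254). Siglech, a defining marker of these cells, was at 0.126 to 0.280 CPM in DT and 0.114 to 0.586 CPM in PBS libraries, and was named after its values were seen. Its log2 fold change was -0.67 ± 0.49 (edgeR adjusted p = 0.605). The median log2 fold change of the list was 0.221, with 6 genes positive and 5 negative. In every DT library 2 of the 11 were higher and 1, Spib, was lower, against 3.33% and 1.73% of all genes tested. Spib, also named after its values were seen, measured 0.235 to 0.320 CPM in DT and 0.350 to 0.526 CPM in PBS libraries (-0.69 ± 0.19, edgeR adjusted p = 0.412).

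Maturation genes of migratory dendritic cells, 18 tested, gave 0 calls and a median log2 fold change of 0.148. Cd86, a costimulatory ligand of activated antigen-presenting cells, measured 2.49 to 2.85 CPM in DT and 1.03 to 1.67 CPM in PBS libraries (0.86 ± 0.16, edgeR adjusted p = 0.118). Cd274, the inhibitory ligand PD-L1, measured 5.25 to 12.1 against 2.31 to 6.29 CPM (1.13 ± 0.36, edgeR adjusted p = 0.502). Cd86 separated the groups, and Cd274 overlapped through DT-labelled replicate 1. Of 15 transcription factors of dendritic cell development, 0 were called and the median was -0.0665. Spi1 (PU.1), a myeloid master regulator, had 0.41 ± 0.11 (edgeR adjusted p = 0.391) and Batf2, an interferon-responsive relative of Batf3, 0.64 ± 0.18 (edgeR adjusted p = 0.433).

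Markers of other cells that can carry these genes were measured beside them. Of 14 macrophage markers, 2 were called higher, the complement genes C1qa (0.75 ± 0.10, edgeR adjusted p = 0.0353) and C1qb (0.70 ± 0.11, edgeR adjusted p = 0.0491). In every DT library 4 of the 14 were higher, and the median log2 fold change was 0.519. The list summed to 533 to 561 CPM in DT and 434 to 476 CPM in PBS libraries. Of 12 T cell markers, 5 were called higher, among them Cd3e (2.31 ± 0.28, edgeR adjusted p = 0.0314), Cd8b1 (3.42 ± 0.49, edgeR adjusted p = 0.0417), Cd5 (2.05 ± 0.29, edgeR adjusted p = 0.0399) and Lck (0.81 ± 0.12, edgeR adjusted p = 0.0417). In every DT library 10 of the 12 were higher, and the median log2 fold change was 1.62. The sum of the list nevertheless overlapped, at 74.3 to 87.5 CPM in DT and 63.1 to 92.3 CPM in PBS libraries. Of 11 interferon-gamma response genes tested, 6 were called higher, among them Igtp (2.47 ± 0.30), Nlrc5 (1.59 ± 0.22), Ciita (1.39 ± 0.15) and Irf1 (0.93 ± 0.14), with edgeR adjusted p-values of 0.0314, 0.0399, 0.0175 and 0.0491. Their list had 9 genes higher in every DT library and a median of 1.59. Of all genes tested, 0.322% were called higher and 3.33% were higher in every DT library. No gene was called by edgeR among 8 monocyte, 10 NK cell, 8 B cell, 7 neutrophil, 8 endothelial, 11 uterine and 13 trophoblast markers tested. The part of these cells in the levels of Itgax, Irf8, Zbtb46 and Fscn1, genes that they share, was not tested.

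The 5 genes whose log2 CPM followed Xcr1 most closely over the 8 libraries, among 16226 genes with a mean of at least 1 CPM on that scale, were Mpeg1 (Pearson r = 0.990), Ctss (0.984), Lpxn (0.982), Ncf1 (0.981) and C1qa (0.981). Without DT-labelled replicate 1 their r was 0.970 to 0.985. For Ccr7 they were Ints9 (0.962), Ephb1 (0.948), B230322F03Rik (0.947), Gm15475 (0.945) and Cyp51 (0.943). These correlations describe 8 libraries that share treatment and tissue composition. Xcr1 separated the groups with and without DT-labelled replicate 1, so genes chosen for following Xcr1 were likely to separate too. Neither their r nor a call among them is separate support. Mpeg1, Ctss and C1qa, which macrophages express strongly, were themselves called higher by edgeR (adjusted p = 0.0375, 0.0153 and 0.0353), and none of the 5 genes near Ccr7 was called (edgeR adjusted p of 0.475 to 0.641).

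Several members were highest in the library with the most muscle relative to decidua. DT-labelled replicate 1, with the highest Myh11 to Prl8a2 ratio, was the highest of all 8 libraries for 7 members, and it was second highest for Cd209a. Among the other 3 DT libraries, whose ratios (0.0660 to 0.155) lay within the PBS range (0.0381 to 0.294), Xcr1 measured 2.05 to 2.30 CPM against 0.926 to 1.07 CPM in PBS libraries. Itgax measured 8.74 to 10.7 CPM there, against 4.84 to 7.21 CPM. Clec9a measured 4.39 to 5.23 CPM, against 3.40 to 4.98 CPM. Xcr1 and Itgax already separated with all 8 libraries. Leaving out DT-labelled replicate 1, their highest library, could not make the groups overlap, so these ranges do not test the separation. When PBS-labelled replicates 1 and 2 were left out as well, an alternative chosen after seeing the data, the log2 fold change was 1.10 for Xcr1 (edgeR adjusted p = 0.0870), 0.54 for Itgax (0.309), 0.0078 for Flt3 (0.997), -0.01 for Clec9a (0.995) and -1.01 for Cd209a (0.122).

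**Figure D4:**
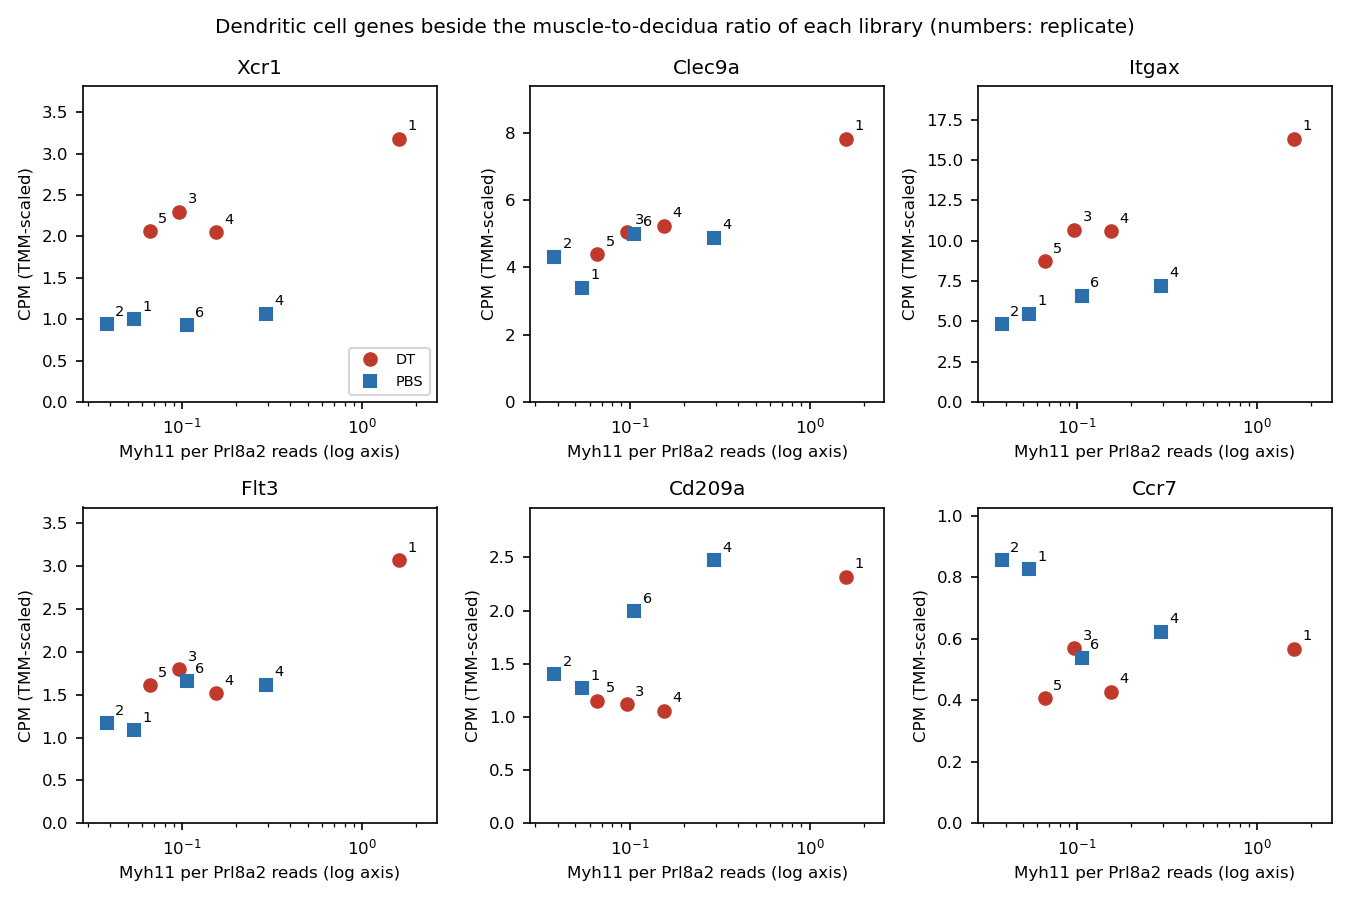
CPM of 6 dendritic cell genes (vertical axes, from 0) against the ratio of Myh11 to Prl8a2 reads in the same library (horizontal log axis); circles are DT and squares PBS libraries, with replicate numbers. DT-labelled replicate 1 lies alone at a ratio of 1.60, and the other 3 DT libraries are above the PBS libraries for Xcr1 and Itgax at ratios within the PBS range.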

How the data were processed

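For each of 8 libraries the authors deposited raw counts per Ensembl gene, without normalization. The tools named, per the submitters' processing notes, are featureCounts, HISAT2, Trimmomatic, DESeq2 and SAMtools, with build GRCm38. Not given in the sources used here are their versions, the strand setting and the treatment of multi-mapped reads. Per the labels' protocols, RNA had integrity numbers of 8 to 10 and paired reads of about 75 bases were sequenced. The members and gene lists were chosen with earlier results of these data known.

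Symbols and coordinates came from GENCODE M21 (49326 of 49585 IDs matched), and promoters from RefSeq. Counts were filtered with filterByExpr (minimum count 10, total 15), scaled by TMM and tested in R 4.3.3 with edgeR 4.0.16 (robust quasi-likelihood, two-sided, treatment only). P-values were Benjamini-Hochberg adjusted over 22693 genes with a threshold of 0.05. Of all genes, 73 were called higher and 1 lower. The script was tested on simulated data. DESeq2 1.42.0, limma 3.58.1, other scalings, filters, covariates and left-out libraries were alternatives. Over 28 pairs of libraries, chi-square per degree of freedom was at least 26.3, so each library was counted once. Correlations used log2 CPM with a pseudocount of 0.1.

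Named were all members, ligands and partner chains, Foxp3, Ptprc, up to 4 called genes per other list, for dendritic cell lists with fewer than 2 calls the 2 smallest p-values, and the 5 genes most like Xcr1 and Ccr7.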

Additional observations from a re-analysis of the deposited data

Results flagged for a closer look

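Each member was screened in each group for a single library far from the other 3 (Dixon's criterion for 4 values, 20 groups screened), and chance flags about 1 in 20 such groups. Batf3 in PBS-labelled replicate 2 was 1.001 CPM, against 0.482 to 0.557 CPM in the other PBS libraries, a gap of 0.855 of the group's range. Cd209a in DT-labelled replicate 1 was 2.319 CPM, against 1.061 to 1.155 CPM in the other DT libraries, a gap of 0.925 of the range. The first library is the richest in conceptus transcripts, and the second has the lowest Prl8a2 level of all 8. The part of tissue composition in either value was not tested.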

How the results depend on the processing

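Xcr1 had a positive log2 fold change of 1.07 to 1.42 in every setting run. Its edgeR adjusted p was 0.0367 and became 0.0572 with library size only, 0.428 without the PBS libraries with suffix S1, 0.138 without the DT libraries with suffix S3, 0.0870 without DT-labelled replicate 1 and the S1 libraries, and 0.0452 with the conceptus score as a covariate. The number of members called higher, 1, became 2 by DESeq2 and with the Myh11 to Prl8a2 covariate, and 0 with library size only, without the S1, without the S3 and without DT-labelled replicate 1 and S1 libraries, and 0 to 1 leaving out single libraries.

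The 73 genes called higher overall became 272 by DESeq2, 0 without S1, 23 without S3, 125 with the conceptus score, 234 with the Myh11 to Prl8a2 covariate and 0 to 115 leaving out single libraries (115 without DT-labelled replicate 1, 43 without PBS-labelled replicate 4 and 0 without any other). The 1 gene called lower became 72, 2 (library size only and upper quartile), 0 (S3), 5 (conceptus score), 16 (Myh11 to Prl8a2) and 0 to 5. Library size only moved the middle of all fold changes (log2) to 0.12.

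Clec9a turned to -0.0124 without DT-labelled replicate 1 and the S1 libraries. Irf8 turned to 0.0498 with library size only, 0.335 without S1, 0.227 with the conceptus score, 0.372 without DT-labelled replicate 1 and S1, 0.075 with the Myh11 to Prl8a2 covariate, and -0.218 to 0.0485 leaving out single libraries. Fscn1 turned to -0.002 by DESeq2, -0.00017 with RLE factors, -0.0595 without S3, -0.0679 with the Myh11 to Prl8a2 covariate, and -0.102 to 0.0993 leaving out single libraries.

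The median of the cross-presenting genes, 0.778, became 1.08 without S1, 0.514 without S3 and 0.592 to 1.07 leaving out single libraries, and that of the 5 genes of neither class became 0.00994 without DT-labelled replicate 1 and S1. That of the migration genes, -0.256, became -0.0365 without S1, -0.41 without S3, -0.12 with library size only and -0.366 to -0.162 leaving out single libraries. Ratios without overlap, 1 higher and 0 lower against Ptprc, became 2 and 1 against Itgb2, 1 and 2 against Cd52, and 1 to 3 and 0 to 1 leaving out single libraries. Under a filter of 1 CPM in 4 libraries, Batf3 and Ccr7 were not tested. For all of these the cause was not tested.

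Replicate numbers 1 and 4 occur in both groups, and the labels tie them to no shared animal, litter or day. Deviations of same-numbered libraries had correlations of -0.491 (number 1) and 0.321 (number 4), so the numbers were not taken to pair them. With the replicate block on those 4 libraries, 0 genes were called in either direction, 0 members were called, and the cross-presenting median was 1.15. The depth limits chiefly Ccr7 and Batf3, with 42 to 193 reads per library.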
